A study of Mus musculus with 24 samples.

Results

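The 10 genes described here encode proteins by which resting astrocytes keep the brain's fluid, transmitters and metabolites in balance: Aqp4, Slc1a2, Slc1a3, Aldh1l1, Gja1, Gjb6, S100b, Aldoc, Glul and Sox9. They were taken as a list by name, chosen with earlier results of these data known, so their shares beside all genes are descriptions. All 10 were among the 55291 gene symbols of the deposited tables and passed the low-count filter of every fit. The RNA came from mouse hippocampus and was read by MeRIP-seq, in which an antibody against N6-methyladenosine (m6A), a methylated base inside messenger RNA, pulls down the transcripts that carry it. From each of 12 animals there is an input library, a readout of expression, and a library of the antibody-bound RNA (IP), which makes 24.

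There were 3 groups with 4 animals in each. The untreated group was wild-type. 5xFAD mice, a transgenic model of amyloid deposition whose transgenes are driven by the neuronal Thy1 promoter, received vehicle or MS1262, the compound of a series titled for a brain-penetrant inhibitor of G9a, a histone methyltransferase. The groups were age-matched, while the age, the dose and the duration of treatment are not given in the sources used here. Since the wild-type mice received neither vehicle nor drug, genotype and dosing cannot be told apart in a comparison with them. Reads of Thy1, which the transgene cassette shares, followed the labels: 96.1 ± 8.74 CPM (counts-per-million values) in wild-type input, 471 ± 202 in vehicle and 533 ± 101 in MS1262 (SD, n = 4), with no overlap between wild-type and either 5xFAD group.

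Astrocytes wrap synapses and vessels. They take up glutamate released by neurons, turn it into glutamine, pass ions and metabolites to each other through gap junctions, and move water at the endfeet that cover vessels. In mice with amyloid plaques, astrocytes near plaques turn reactive, a state marked by Gfap and known in many models to change some of these housekeeping functions. The list tested here holds the homeostatic side of that biology.

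Input libraries held 20.7 M to 43.2 M counts and IP libraries 3.98 M to 48.6 M, the lowest being the IP library of vehicle animal 4. That library also stood apart in the ratio of IP to input, so the main values of the vehicle group on that ratio are given with and without it. Vehicle animal 3 carried the most choroid plexus RNA: the summed level of 7 choroid plexus markers was 7558 CPM, mostly through Ttr. Wild-type animal 3 was next at 822 CPM, against 62.5 to 81.1 in the other wild-type animals. MS1262 animals had at most 192 CPM, in animal 3. In the input library of vehicle animal 3, Xist had 33.3 counts, against 771 to 2006 in the other input libraries. The Y-linked genes Ddx3y, Eif2s3y, Kdm5d and Uty had 0 counts in both the input and the IP library of that animal. No marker of astrocytes, neurons, microglia or oligodendrocytes was at 0 in all 12 input libraries, and the 10 genes together made up 7558 to 9415 CPM in wild-type, 7551 to 11106 in vehicle and 8463 to 9354 in MS1262. The hippocampus is a mix of cells, so the number of astrocytes and the RNA per astrocyte cannot be told apart in these values.

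Levels per transcript length are given first, as TPM (transcripts-per-million values), the only scale on which different genes can be compared. In wild-type input, Aldoc, the brain form of the glycolytic enzyme aldolase, stood highest at 2008 ± 116 TPM (SD, n = 4). Slc1a3 (the glutamate transporter GLAST) followed at 472 ± 132 TPM and Glul (glutamine synthetase) at 367 ± 30.2 TPM, and their ranges overlapped. Gja1 (connexin 43) at 238 ± 28.7 TPM, S100b (a calcium-binding protein) at 234 ± 26.7 TPM, Gjb6 (connexin 30) at 207 ± 63.8 TPM and Slc1a2 (the glutamate transporter GLT-1) at 142 ± 23.5 TPM formed a middle group in which each neighbour overlapped the next. Aqp4, the water channel of endfeet, had 48.5 ± 6.67 TPM. Sox9, a transcription factor of the astrocyte lineage, had 28.4 ± 5.29 TPM, and Aldh1l1, a folate-metabolizing enzyme used as a pan-astrocyte marker, had 16.8 ± 3.23 TPM. Across these 10 genes the wild-type means spanned 119.6-fold, and 5 of 9 neighbouring pairs in the order did not overlap.

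The order was nearly the same in the 5xFAD groups. Aldoc, Slc1a3 and Glul held the first ranks and Slc1a2, Aqp4, Sox9 and Aldh1l1 the last ranks in the input of all 3 groups, and only Gja1, S100b and Gjb6 exchanged places. In the IP libraries the mean of Gja1 stood above that of Glul in all 3 groups. Their ranges overlapped in vehicle, where animal 4 had 361 TPM for Gja1 and 487 TPM for Glul. Aldh1l1 stood above Sox9 in the IP libraries of all 3 groups, with 50.3 ± 8.69 against 18.9 ± 1.42 TPM in wild-type.

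**Figure D1:**
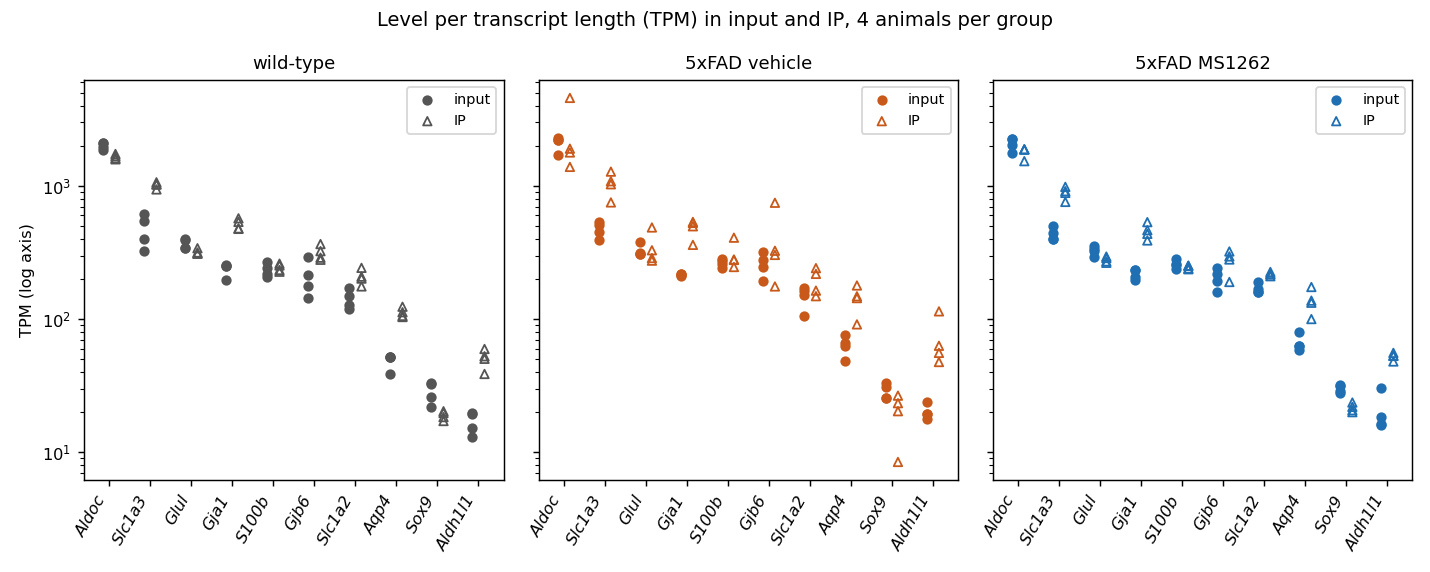
TPM on a log axis for each of the 10 genes in input (filled circles) and IP (open triangles), 4 animals per group, with genes ordered by their wild-type input mean. Aldoc stands highest in every panel, and Aldh1l1 and Sox9 exchange the last ranks between input and IP.

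Genome positions are those of RefSeq on GRCm38.p6. The glutamate transporters span 132546 bases on chromosome 2 (Slc1a2) and 76684 bases on chromosome 15 (Slc1a3). Aldh1l1 spans 48404 bases on chromosome 6, Aqp4 21589 bases, Gja1 13120 bases on chromosome 10 and Gjb6 10311 bases on chromosome 14. The most compact members are Glul with 9795 bases on chromosome 1, S100b with 7484 bases on chromosome 10, and Sox9 with 5548 and Aldoc with 4709 bases, both on chromosome 11.

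Because Sox9 is the list's transcription factor, the 250 bases before the RefSeq transcription starts were searched for the core letters that SOX proteins bind, ACAAT or ATTGT on the printed strand. Windows were at hand for 8 of the 10 genes (9 windows, since Aldoc has a pair of starts). The core occurred in 2 of the 9, against 27.7% of all 32851 mouse windows. Both are shown with the core in capitals. Next to them is the window of Gja1, which lacks the core and has a deposited IP peak just downstream in most animals. All are 5′ to 3′ on the strand of the gene. Slc1a3 lies on the minus strand at chr15:8710808-8711057, Aldoc on the plus strand at chr11:78322823-78323072 and Gja1 on the plus strand at chr10:56377050-56377299.
Slc1a3: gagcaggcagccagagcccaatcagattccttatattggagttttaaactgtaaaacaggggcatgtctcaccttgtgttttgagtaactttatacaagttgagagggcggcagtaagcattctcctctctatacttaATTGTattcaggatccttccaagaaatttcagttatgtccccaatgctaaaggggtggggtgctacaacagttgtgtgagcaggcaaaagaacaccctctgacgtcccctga
Aldoc: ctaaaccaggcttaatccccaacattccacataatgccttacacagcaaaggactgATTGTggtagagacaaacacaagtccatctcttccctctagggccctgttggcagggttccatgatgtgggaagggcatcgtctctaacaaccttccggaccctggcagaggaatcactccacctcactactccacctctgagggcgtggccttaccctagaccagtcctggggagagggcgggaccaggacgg
Gja1: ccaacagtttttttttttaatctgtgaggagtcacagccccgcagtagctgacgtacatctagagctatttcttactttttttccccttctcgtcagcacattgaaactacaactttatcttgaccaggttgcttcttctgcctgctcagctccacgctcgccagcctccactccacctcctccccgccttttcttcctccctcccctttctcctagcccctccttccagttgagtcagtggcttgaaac
A match of 5 letters is a description of the window, not a binding site.

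The letters TTGGCA or TGCCAA, the core letters bound by NFI factors, which act in astrocyte differentiation, were in the Aldoc window above and in that of S100b, 2 of 9 windows against 12.3% of all windows.

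The first comparison asked how the homeostatic genes stood in the input of vehicle-treated 5xFAD mice against wild-type. Aqp4 showed the clearest difference. Its input level was 243, 229, 181 and 220 CPM in wild-type animals 1 to 4, and 320, 351, 319 and 269 CPM in vehicle animals. On this scale every vehicle animal was above every wild-type animal, and the fitted difference was 1.44-fold (95% interval 1.19 to 1.75), a log2 difference of 0.53 (SE 0.13). The edgeR quasi-likelihood adjusted p was 0.0632, above the threshold of 0.05. It was 0.0459 without vehicle animal 4 and 0.0498 without MS1262 animal 1, which enters only through the shared spread. Over all omissions of single animals the adjusted p ran from 0.0459 to 0.197 and the log2 difference from 0.45 to 0.60.

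Aldh1l1 and S100b also had groups that did not overlap on CPM. Aldh1l1 was at 27.1, 29.8, 29.7 and 24.95 CPM in wild-type and 31.6, 33.0, 35.2 and 55.7 CPM in vehicle animals, a log2 difference of 0.48 (SE 0.18, edgeR adjusted p = 0.269). Vehicle animal 4 was far above the other 3, and without it the log2 difference was 0.26. S100b was at 273, 248, 306 and 304 CPM in wild-type and 385, 342, 332 and 361 CPM in vehicle animals, a log2 difference of 0.33 (SE 0.10, edgeR adjusted p = 0.158). On CPM, the vehicle group lay wholly above wild-type in these 3 of 10 genes, as in 4.08% of all 17693 genes tested. The same 3 had a raw p below 0.05, as did 12.8% of all genes. On the TPM scale all 3 overlapped: Aqp4 reached 52.0 TPM in wild-type and went down to 48.1 TPM in vehicle animals, Aldh1l1 reached 19.7 and went down to 17.7 TPM, and S100b reached 268 and went down to 243 TPM. The log2(TPM + 1) differences were 0.36, 0.26 and 0.18, where the median of all genes was −0.12 (limma adjusted p = 0.256, 0.525 and 0.426).

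None of the 10 genes passed the adjusted threshold with edgeR, against 1.57% of all genes tested, and DESeq2 called 1, Aqp4 (adjusted p = 0.0108). The median log2 difference of the 10 was 0.21, beside 0.01 over all genes, and 9 of 10 were above 0, beside 51.6% of all genes.

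The glutamate transporters varied more within groups than between them. Slc1a2 was at 1953, 1290, 1467 and 1540 CPM in wild-type and 2139, 1681, 1222 and 2063 CPM in vehicle animals, which overlapped (log2 difference 0.18, 95% interval −0.15 to 0.52). Slc1a3 was at 2073, 2207, 1277 and 1359 CPM in wild-type and 1878, 1936, 1509 and 2408 CPM in vehicle animals, again overlapping (log2 difference 0.16, 95% interval −0.21 to 0.53). Vehicle animal 3, the one with the most choroid plexus RNA, was lowest of its group for both. Without it the Slc1a2 difference was 0.31 (edgeR adjusted p = 0.318). Wild-type animal 3, next in choroid plexus RNA, was lowest of its group for Slc1a3 (1277 CPM) and not for Slc1a2 (1467 CPM). Among the other members, vehicle animal 3 was lowest of its group for S100b, Aldoc and Sox9. It was not lowest for Aqp4, Aldh1l1, Gja1, Gjb6 or Glul. The part of choroid plexus RNA in these values was not tested.

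Glul, which makes glutamine from the glutamate these transporters bring in, overlapped fully between the groups, at 588, 497, 541 and 563 CPM in wild-type and 639, 461, 493 and 591 CPM in vehicle animals. Its log2 difference had a 95% interval of −0.26 to 0.25. Gja1 had a log2 difference of 0.01 (95% interval −0.19 to 0.22), while the other connexin, Gjb6, had 0.26 (95% interval −0.06 to 0.59), which was 0.11 without vehicle animal 4. Aldoc had a log2 difference of 0.24 (95% interval −0.04 to 0.52) and Sox9 0.17 (95% interval −0.12 to 0.45), and both overlapped between groups.

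**Figure D2:**
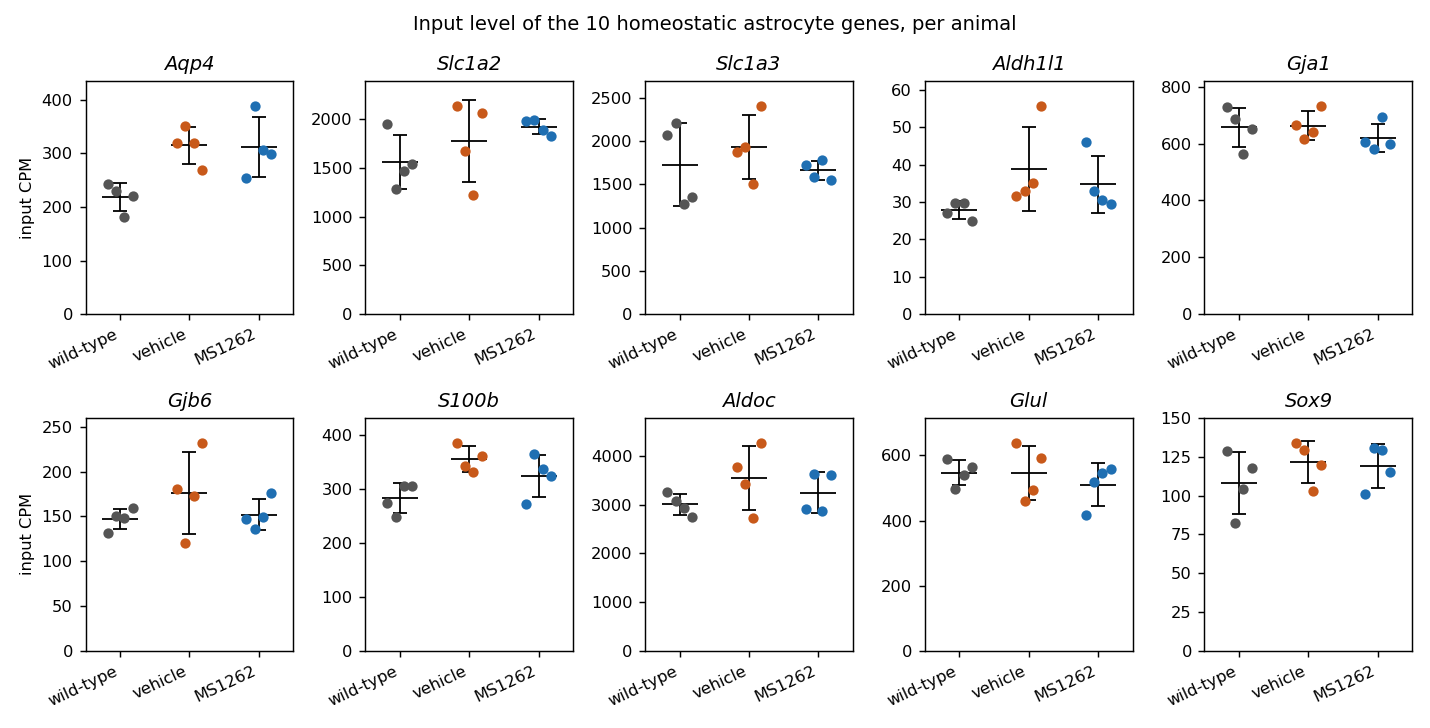
Input CPM of the 10 genes in each animal (points), with the mean (bar) and SD (whiskers) of the 4 animals per group. The Aqp4 points of both 5xFAD groups lie above all 4 wild-type points on this scale, which in TPM holds for MS1262 and not for vehicle animal 4, while Gja1 and Glul points overlap across groups.

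In the MS1262 group Aqp4 again lay wholly above wild-type, at 254, 389, 306 and 299 CPM. The log2 difference from wild-type was 0.51 (SE 0.13, edgeR adjusted p = 0.0719; DESeq2 adjusted p = 0.0139). Of the 10 genes 1, Aqp4, had an MS1262 group wholly above wild-type, as 5.23% of all genes did. With edgeR 0 of 10 members were called, against 1.3% of all genes, 1 had a raw p below 0.05, beside 14.3% of all genes, and DESeq2 called 1, Aqp4. Next in size were Aldh1l1 with a log2 difference of 0.32 (95% interval −0.07 to 0.71) and Slc1a2 with 0.30 (95% interval −0.04 to 0.64). Slc1a2 was uniform in this group, at 1987, 1994, 1889 and 1835 CPM. This comparison shares its wild-type animals with the previous one.

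MS1262 against vehicle is the comparison of the drug within 5xFAD mice. Aqp4 means were 315 ± 33.9 CPM in vehicle and 312 ± 55.9 CPM in MS1262 (SD, n = 4), a log2 difference of −0.01 (95% interval −0.29 to 0.26). Gja1 had −0.10 (95% interval −0.31 to 0.11), S100b −0.13 (95% interval −0.35 to 0.09) and Glul −0.10 (95% interval −0.35 to 0.16). Slc1a3 was at 1729, 1583, 1788 and 1553 CPM in MS1262 animals, within the range of the vehicle animals, and had the lowest log2 difference of the 10 at −0.22 (95% interval −0.59 to 0.16). Slc1a2 alone was above 0, at 0.12 (95% interval −0.22 to 0.45). None of the 10 was called by edgeR or DESeq2 and none had a raw p below 0.05. Over all genes edgeR called 0%, with 1003 of 17693 at a raw p below 0.05, and DESeq2 called 0. The intervals were widest for Slc1a3, Aldh1l1 (−0.55 to 0.23) and Slc1a2, and narrowest for Gja1.

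**Figure D3:**
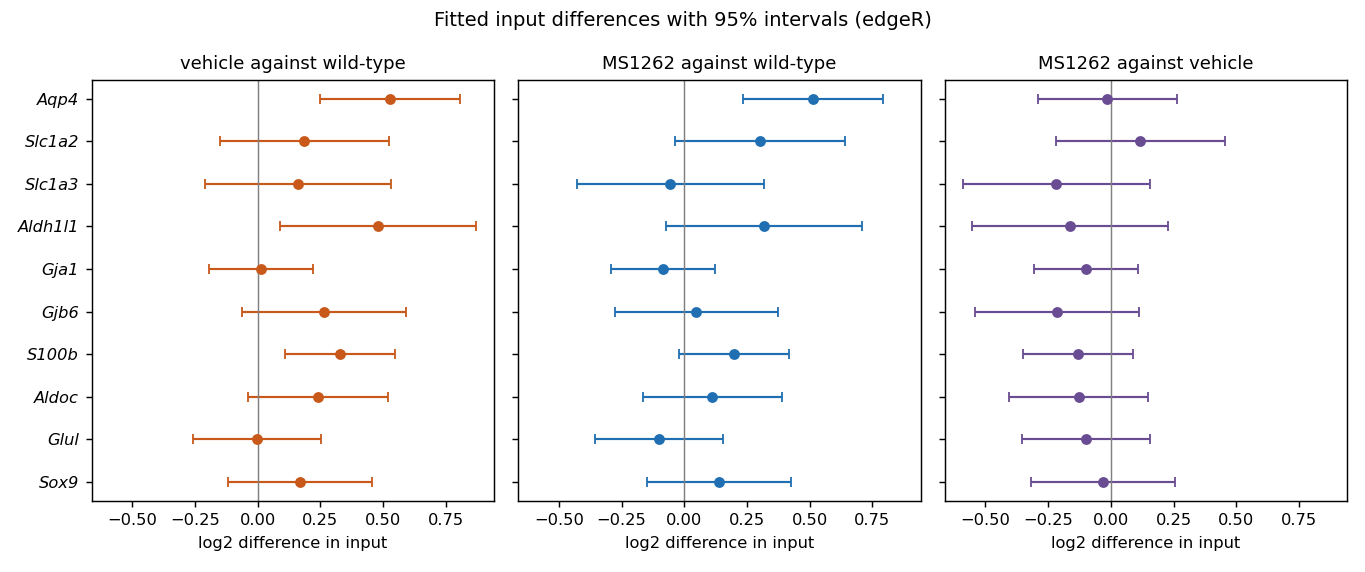
Fitted log2 differences in input (points) with 95% intervals (bars) from edgeR for the 10 genes in 3 comparisons. Aqp4 lies at 0.53 and 0.51 against wild-type and at −0.01 between the 5xFAD groups.

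The spread between animals of a group differed by gene. The coefficient of variation of input CPM was 7.57% to 10.7% for Gja1 in the 3 groups, and 6.81% to 27.7% for Slc1a3. In vehicle animals 1 and 4, 8 of 10 members were above their group mean on the log2 scale, and in vehicle animal 3 only 2 of 10 were.

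Related lists were set beside the 10. Of 28 further astrocyte genes, such as the transporter genes Slc25a18 (log2 difference 0.59, edgeR adjusted p = 0.123) and Slc14a1 (0.63, adjusted p = 0.141), 0 were called in vehicle against wild-type, 24 were above 0 and the median was 0.18. None was called among 14 genes of glutamate and glutamine handling, 11 gap junction genes, 11 endfoot anchoring genes or 13 astrocyte transcription factors, with medians of 0.10, 0.01, 0.21 and −0.05. The reactive list differed: 3 of 17 tested genes rose, namely Osmr (the oncostatin M receptor, log2 difference 1.56, edgeR adjusted p = 0.0157), the complement gene C4b (1.87, adjusted p = 0.0177) and Gfap (1.52, adjusted p = 0.0449), with a list median of 1.07. Microglia markers moved in the same samples, with 3 of 8 called higher and a summed level of 314 to 592 CPM in vehicle against 292 to 337 CPM in wild-type. Their part in the values of the homeostatic genes was not tested. In MS1262 against wild-type, 4 of the 17 reactive genes were called higher, Osmr (1.88), C4b (2.04), Vim (0.95) and Ggta1 (1.4). The list median was 0.49 in that comparison, with 12 of 17 genes above 0, beside 15 of 17 in vehicle against wild-type. Gfap was not called in MS1262 against wild-type, but its log2 difference was similar to that in vehicle, at 1.46 (edgeR adjusted p = 0.0582). Between MS1262 and vehicle, Gfap had a log2 difference of −0.06 (edgeR adjusted p = 0.98). None of the 28 astrocyte genes was called in MS1262 against wild-type.

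The genes whose input profiles over the 12 animals ran closest to the mean profile of the 10 were Plcd4 and Mertk, with a root mean square distance of 0.332 and 0.348 between standardised log2 CPM profiles. Cyp2j9, Irgm1 and Prex2 followed at 0.457, 0.474 and 0.476. Among 8482 genes considered the median distance was 1.39, and the members themselves lay between 0.557 (Aldoc) and 0.978 (Aldh1l1).

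The second measurement asked which of these transcripts the m6A antibody enriched. The ratio of IP to input is relative: 0 on its log2 scale is set by the normalization over all genes, so it ranks transcripts and does not give the share of methylated molecules. The 10 genes split. Aldh1l1, Aqp4, Slc1a3 and Gja1 had more IP than input signal in wild-type, S100b, Aldoc, Glul and Sox9 had less, and Slc1a2 and Gjb6 were near 0. In wild-type 8 of 10 were called by edgeR, against 33% of all 18300 genes tested: 4 were higher, as 16.8% of all genes were, and 4 lower, as 16.2% were. In vehicle 7 were called against 39.7% of all genes, 2 of them higher (19.1% of all genes) and 5 lower (20.6%), and without vehicle animal 4 there were 9, 4 higher and 5 lower. In MS1262 8 were called against 38.1% of all genes, 4 higher (20.5%) and 4 lower (17.6%). The split depends on the scale: limma on log2(TPM + 1), where the typical gene lies above 0, called 5 higher and 1 lower in each of the 3 groups.

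Aldh1l1 was the most enriched member. Its log2 ratio of IP to input CPM was 1.45, 1.29, 1.53 and 1.39 in wild-type animals 1 to 4, 1.48, 1.38, 1.18 and 1.69 in vehicle and 0.92, 1.34, 1.36 and 1.36 in MS1262. All 12 animals were far above 0. The fitted enrichment in wild-type was 2.66-fold (log2 1.41, SE 0.10, edgeR adjusted p = 1.16e-07).

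Aqp4 was at 0.67, 0.42, 0.76 and 0.73 in wild-type, with a fitted log2 ratio of 0.64 (SE 0.15, edgeR adjusted p = 0.00337). In vehicle it was at 0.54, 0.54 and 0.50 in animals 1 to 3 and at −0.69 in animal 4. The fitted vehicle value was 0.24 (edgeR adjusted p = 0.252) with animal 4 and 0.53 (adjusted p = 2.27e-06) without it. In MS1262 it was 0.40 (edgeR adjusted p = 0.0461), a call lost in 11 of 20 alternative analyses, where adjusted p reached at most 0.193.

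Slc1a3 was at 0.42, 0.19, 0.91 and 0.71 in wild-type (fitted log2 ratio 0.56, SE 0.13, edgeR adjusted p = 0.00287) and at 0.48, 0.38, 0.31 and −0.33 in vehicle. The vehicle value was 0.21 (edgeR adjusted p = 0.217) with animal 4 and 0.39 (adjusted p = 0.00274) without it, and the MS1262 value was 0.39 (adjusted p = 0.025), which was lost without MS1262 animal 2, 3 or 4 (adjusted p 0.112, 0.0773 and 0.109). Gja1 was enriched in each group, with fitted log2 ratios of 0.54, 0.41 and 0.46 in wild-type, vehicle and MS1262 (edgeR adjusted p = 0.00149, 0.0088 and 0.00437). Its vehicle call was lost when animal 1, 2 or 3 was left out, with adjusted p between 0.0567 and 0.0611, and stood at 0.59 without animal 4.

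At the other end, Sox9 was at −1.18, −0.96, −1.23 and −1.23 in wild-type, −1.12, −1.0, −0.94 and −2.47 in vehicle and −0.82, −1.30, −1.11 and −1.13 in MS1262. All 12 animals were below 0, and the fitted wild-type log2 ratio was −1.15 (SE 0.17, edgeR adjusted p = 6.64e-05). Aldoc had fitted values of −0.84, −0.69 and −0.82 in wild-type, vehicle and MS1262, Glul −0.69, −0.54 and −0.75, and S100b −0.51, −0.55 and −0.68, each with an edgeR adjusted p of at most 0.00156. For Aldoc and Glul, vehicle animal 4 was the only animal of 12 above 0, at 0.07 and 0.06, and its S100b ratio was the highest of the 12, at −0.12. Without it the vehicle values were −0.94, −0.73 and −0.69.

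Slc1a2 and Gjb6 lay between these. Gjb6 was within 0.24 of 0 in all 12 animals and was called in no group. Slc1a2 was at 0.04, −0.07, −0.06 and −0.07 in wild-type, at −0.22, −0.14, −0.15 and −0.83 in vehicle and at −0.23, −0.32, −0.27 and −0.20 in MS1262. Its fitted vehicle value was −0.33 (SE 0.10, edgeR adjusted p = 0.0136), or −0.17 without animal 4 (adjusted p = 0.00822).

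On the TPM scale the median log2 ratio over all genes was itself 0.37 for wild-type, 0.45 for vehicle and 0.40 for MS1262, so that S100b in wild-type and vehicle, Aldoc and Glul in vehicle, and Slc1a2 and Gjb6 in all 3 groups came out above 0 there. Relative to that shift, S100b, Aldoc, Glul and Sox9 remained below and Aldh1l1, Aqp4, Slc1a3 and Gja1 above in all 3 groups, for example S100b at −0.30, −0.27 and −0.47. Slc1a2 relative to the shift was 0.18, −0.07 and −0.04, and Gjb6 was 0.27, −0.05 and 0.0047, so neither kept 1 direction. Without vehicle animal 4 the vehicle values relative to the shift were 0.03 for Slc1a2, −0.44 for Gjb6 and −0.46 for S100b, and S100b, Aldoc and Glul were below 0 on the TPM scale itself.

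**Figure D4:**
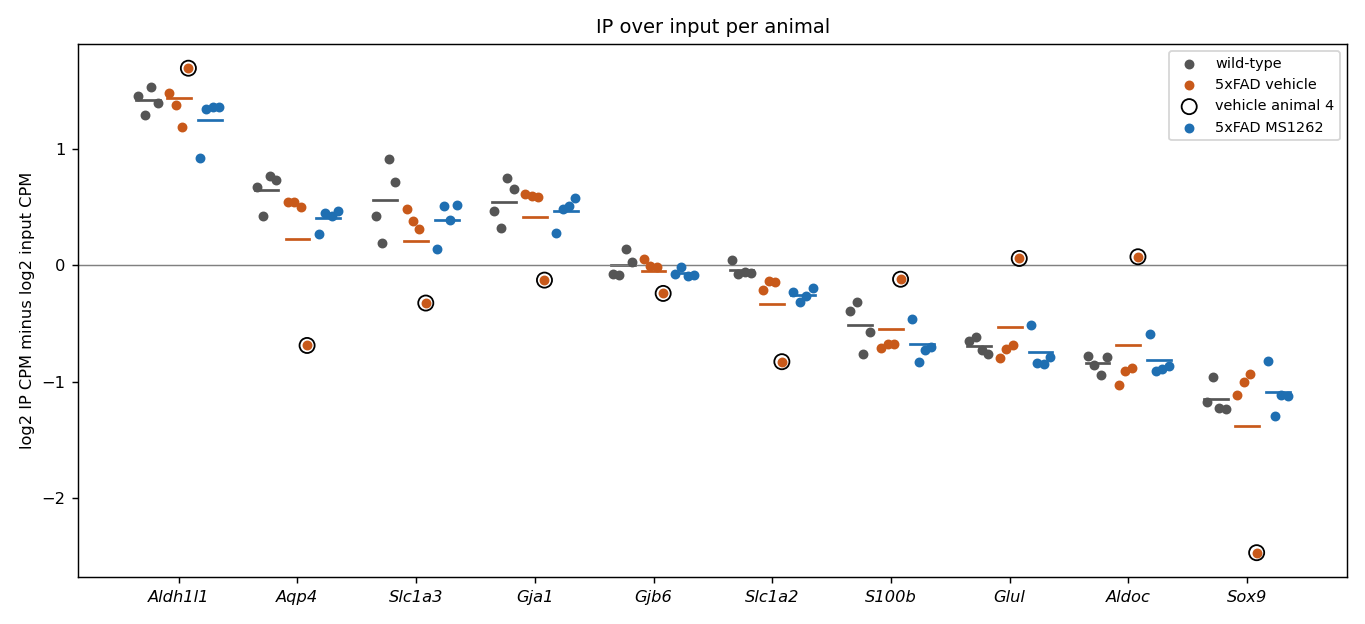
Log2 ratio of IP to input CPM per animal (points) with the mean of 4 animals (short lines), 10 genes from the most to the least enriched, vehicle animal 4 circled. Aldh1l1 points all lie above 0.9 and Sox9 points below −0.8, while on the TPM scale S100b, Aldoc, Glul, Slc1a2 and Gjb6 lie above 0 in some groups.

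Gene length was set beside the ratios as a property the list did not use. The 4 members below input spanned 4709 to 9795 bases in the genome, and the 4 above input spanned 13120 to 76684 bases, while Gjb6 (10311 bases) fell between them and Slc1a2 (132546 bases) was the longest. With 10 genes of varied exon structure this is a description, and transcript length was not tested.

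Whether enrichment itself differed between groups was tested as the difference of the IP over input effects. None of the 10 was called by edgeR or DESeq2 in any of the 3 comparisons, and none had a raw p below 0.05. Over all genes edgeR called 0.989% in vehicle against wild-type, 1.24% in MS1262 against wild-type and 0% in MS1262 against vehicle, the last with 434 of 18300 genes at a raw p below 0.05 and 2 called by DESeq2. In vehicle against wild-type the largest difference among members was that of Aqp4, at −0.41 (95% interval −0.87 to 0.05), which was −0.12 without vehicle animal 4.

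Slc1a2 ratios on the CPM scale did not overlap between wild-type and the 5xFAD groups, while on the TPM scale vehicle animal 3 (0.49) lay above wild-type animal 4 (0.48) and the MS1262 animals stayed below. On CPM all 4 vehicle and all 4 MS1262 animals were below all 4 wild-type animals, as was so for 3.25% and 3.94% of all genes in these comparisons, which share the wild-type animals. The differences were −0.29 (95% interval −0.59 to 0.0044, edgeR adjusted p = 0.436) and −0.21 (95% interval −0.51 to 0.08, adjusted p = 0.657). Without vehicle animal 4 the first was −0.13 (adjusted p = 0.386), and the second stayed at −0.21 but had an adjusted p of 0.0421 by edgeR. Between the 5xFAD groups, Slc1a2 differed by 0.08 (95% interval −0.22 to 0.37).

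Gfap is the contrast. Its log2 ratio was 0.37 in the wild-type, 1.76 in the vehicle and 2.09 in the MS1262 group, and the differences from wild-type were 1.39 (SE 0.17, edgeR adjusted p = 0.0021) and 1.72 (SE 0.17, adjusted p = 0.000206). Without vehicle animal 4 the vehicle ratio was 1.74 and its difference 1.38. No homeostatic member had a difference larger than 0.41 either way.

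The deposited peak lists place the IP signal along the genes. Peaks were called per animal against its own input, with a lenient q cutoff, so their number is a description. Aqp4, Slc1a2 and Gja1 carried a peak in all 12 animals. Aldh1l1 carried one in 2 wild-type, 4 vehicle and 4 MS1262 animals. The wild-type animals without one had IP libraries of 10.65 M and 17.2 M counts. Vehicle animal 4, with the shallowest IP library at 3.98 M counts, had 11 Aldh1l1 intervals, and the part of depth was not tested. Members with a peak in at least 3 of 4 animals numbered 5 among wild-type, 4 among vehicle and 4 among MS1262 animals, beside 24.5%, 26.5% and 30.1% of 3657 protein-coding genes with an input TPM at least as high as the lowest member.

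Slc1a3 and Aldoc each had a peak in 3 wild-type animals, vehicle animal 4 and MS1262 animal 1. The IP libraries of those animals held 3.98 M to 25.97 M counts, against 20.5 M to 48.6 M in the animals without such a peak. The part of depth in these calls was not tested. S100b and Glul had peaks in vehicle animal 4 alone, Gjb6 in that animal and wild-type animal 4, and Sox9 in none. Vehicle animal 4 had peaks over 9 of the 10 members, the other animals over 4 to 7.

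In Gja1 the peaks fell at the ends of the gene. An interval at chr10:56387468-56390337, which ends just before the annotated transcript end at 56390419, was present in 12 of 12 animals. Another at chr10:56377341-56377678, just after the transcript start at 56377300, was present in 10 of 12, all 4 wild-type, 2 vehicle and 4 MS1262 animals. The authors' fold enrichment over the local background reached 2.76 at the start and 2.18 at the end. In Slc1a2 the intervals at chr2:102785539-102787910 (10 of 12 animals) and chr2:102781451-102783251 (9 of 12) both lie toward the end of the gene, which closes at 102790784.

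In Aldh1l1 the most frequent intervals, chr6:90559139-90559577 and chr6:90569509-90570046, lie inside the gene, which runs from 90550768 to 90599171, and were each present in 1 wild-type, 4 vehicle and 4 MS1262 animals. The gene's level in wild-type input was the lowest of the 10, and its IP over input effect in vehicle against wild-type differed by 0.02 on the log2 scale (95% interval −0.28 to 0.32), or by −0.06 without vehicle animal 4.

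**Figure D5:**
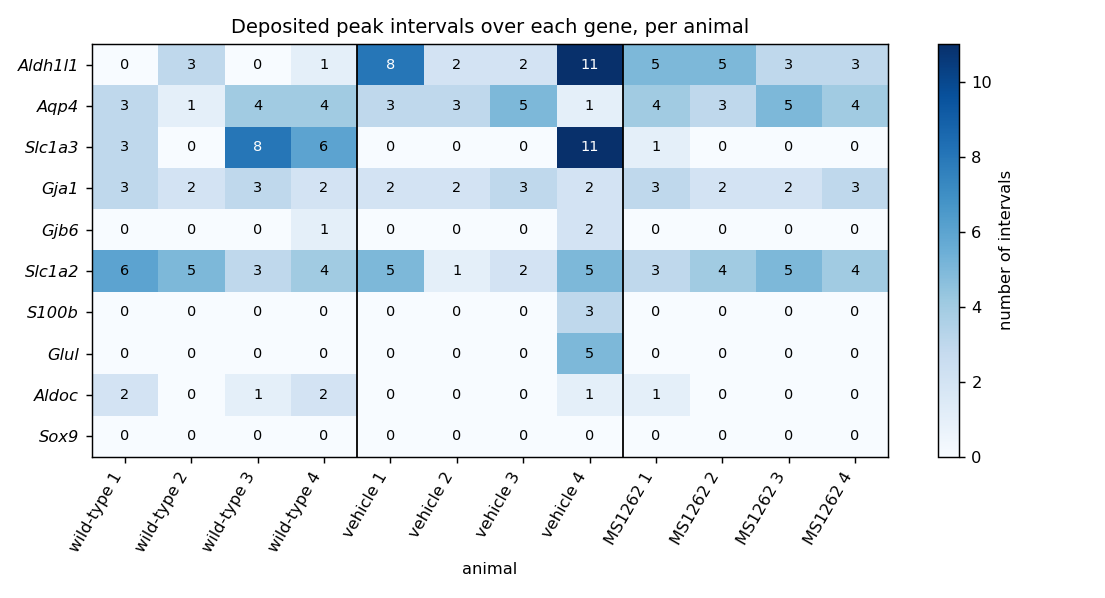
Number of deposited peak intervals over each of the 10 genes in each of the 12 animals, with genes in the order of enrichment and vertical lines between groups. Gja1, Slc1a2 and Aqp4 have an interval in every animal, and S100b and Glul have intervals in vehicle animal 4 alone.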

How the data were processed

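RNA from mouse hippocampus was measured in 24 libraries, an input and an IP library from each of 12 animals in 3 groups of 4, grouped by the labelled genotype and treatment. The mRNA was selected with oligo(dT), per the labels' protocols, and a polyclonal m6A antibody was applied to what remained of 150 ng after 10% had been set aside as input. Salmon 1.4.0 and STAR 2.7.6a are listed next to Trimmomatic 0.32, MACS2 2.1.2, bcl2fastq 2.17.1.14 and SAMtools 1.10 and the builds GRCm38 and mm10, per the submitters' processing notes, which give no roles. The authors deposited estimated counts and TPM per gene symbol. Of the deposited estimated counts 8.62% were fractional, so all were rounded to whole numbers for the fits. The deposited TPM values were used for levels between genes and, with limma 3.58.1, for alternatives at log2(TPM + 1) and log2(TPM + 0.1). Peaks were called per animal against its own input with MACS2, per the file headers, and carry the authors' fold enrichment (a ratio) and −log10 q and p values as deposited. No peak was called on pooled animals.

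Expression was tested with edgeR 4.0.16 (TMM, quasi-likelihood F test, minimum count 10, Benjamini-Hochberg adjustment over all genes, threshold 0.05) on the 12 input libraries. IP over input, and its difference between groups, was tested on all 24 libraries with each animal as a block. Intervals are 95%. The scripts were tested on simulated data. DESeq2 1.42.0, other scalings, filters, replicate blocks and omissions of single animals were the alternatives. Over 12 input libraries the replicate numbers did not pair animals across groups. Among the IP libraries of its group, each input library deviated most like that of its own animal, with correlations of 0.15 to 0.35. The 12 input libraries held 20.7 M to 43.2 M counts, and the p-values measure the spread between these animals. Profile likeness took the 5 nearest genes with a mean log2 CPM of at least 3. Promoter windows came from RefSeq on GRCm38.p6. The 10 genes and all lists were chosen with earlier results of these data known. Beyond the 10, genes of the other lists were named from the 4 smallest p in each list, with Gfap and Thy1 always considered. Genome sequence, exon structure and protein sequence were not used here.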

Additional observations from a re-analysis of the deposited data

Results flagged for a closer look

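Of 60 sets of 4 animals (10 genes in 3 groups, for input CPM and for the log2 ratio of IP to input), 11 held an animal whose gap to the nearest other exceeded Dixon's 95% critical value, which chance alone passes in about 1 in 20. In 8 of them it was vehicle animal 4, whose IP library was the shallowest. Its Aldh1l1 input level was 55.7 CPM, against 31.6 to 35.2 in the other vehicle animals, and its input library held 40.8 M counts. Its log2 IP to input ratio was −0.69 for Aqp4 (others 0.50 to 0.54), −0.83 for Slc1a2 (others −0.22 to −0.14), −0.13 for Gja1 (others 0.58 to 0.61) and −2.47 for Sox9 (others −1.12 to −0.94). For S100b it was −0.12 (others −0.71 to −0.68), for Aldoc 0.0710 (others −1.03 to −0.88) and for Glul 0.0567 (others −0.80 to −0.69).

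MS1262 animal 1 had a ratio of 0.92 for Aldh1l1, against 1.34 to 1.36 in the other 3 animals, and of −0.59 for Aldoc, against −0.91 to −0.87. Wild-type animal 1 had 0.0394 for Slc1a2, against −0.07 to −0.06 in the others, a gap that is small in size. The part of depth in these values was not tested.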

How the results depend on the processing

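Of 1830 values of the 10 genes under alternatives, 1750 kept their side of the threshold without reversing a call. Of the rest, 37 lost a call, 22 gained one and 21 changed sign where at least 1 of the fits made a call. Another 108 changed sign where neither fit made a call. The 21 were log2(TPM) ratios of IP to input, given here with a pseudocount of 1, 0.1, and 1 without a filter. In wild-type Slc1a2 was 0.546, 0.549 and 0.546 and S100b 0.0617, 0.0620 and 0.0617. In vehicle Slc1a2 was 0.380, 0.382 and 0.380, S100b 0.175 each time, Aldoc 0.0431, 0.0430 and 0.0431, and Glul 0.0410, 0.0411 and 0.0410. For Slc1a2 in vehicle both fits made a call, in opposite directions. The main edgeR value was −0.33 (adjusted p = 0.0136), and limma on log2(TPM + 1) gave an adjusted p of 0.00401. In MS1262 Slc1a2 was 0.359, 0.360 and 0.359. At a pseudocount of 1 with the filter all of these lay under the all-gene median except Slc1a2 in wild-type. With TPM, 5 members were called in MS1262 at a pseudocount of 0.1 and at 1 with no filter, against 8.

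Aqp4 was the 1 expression call with DESeq2 and with no filter, against both vehicle and wild-type (adjusted p 0.0108 and 0.0368) and MS1262 and wild-type (0.0139 and 0.0395). Leaving out single animals gave 0 to 1 member calls in these comparisons, 0 in MS1262 against vehicle, 8, 6 to 9 and 6 to 9 for IP over input in wild-type, vehicle and MS1262, and 0, 0 and 0 to 1 for the m6A differences, the 1 being Slc1a2 without vehicle animal 4. Peak counts were 5 to 6, 4 and 4.

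With a replicate block on expression the member counts stayed at 0, and Aqp4 had adjusted p 0.0952 and 0.112. Without the replicate block of IP and input of each animal, 8, 5 and 6 members were called. All-gene counts ranged from 91 to 610 (vehicle against wild-type, 278) and from 73 to 635 (MS1262 against wild-type, 230), the highest with DESeq2, and m6A differences from 0 to 503 (181) and 0 to 858 (227). Bulk tissue, 4 animals a group and 1 shallow IP library limit these values.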

Other observations

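The IP over input calls of related lists in wild-type are given here as counts, with no test of a list. Of 15 glycolysis and lactate genes 9 were above and 2 below input (median log2 ratio 0.45), with Pfkfb3, a glycolytic activator, at 1.68 and the brain glycogen phosphorylase Pygb at 1.46. Of 8 folate one-carbon genes 5 were above and 0 below (median 0.62), with Mthfd1 at 1.44. Of 14 genes of glutamate and glutamine handling 7 were above and 2 below (median 0.25), with the glutamine transporter Slc38a3 at 1.61. Of 28 further astrocyte genes 10 were above and 4 below (median 0.30), with the GABA transporter Slc6a11 at 1.43. Of 13 astrocyte transcription factors 2 were above and 2 below (median −0.13), of 12 endfoot anchoring genes 2 and 1 (median 0.26), and of 11 gap junction genes 2 and 0 (median 0.12). Over all genes 16.8% were above and 16.2% below by the same edgeR test.

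Some listed genes that are no members differed in enrichment between vehicle and wild-type by edgeR. Id3, an inhibitor of transcription factors, rose by 1.28 on the log2 scale (adjusted p = 0.0168), Gjb1 (connexin 32) by 1.1 (adjusted p = 0.0299), Panx2 by 1.37 (adjusted p = 0.0168) and Aldoa, the paralog of Aldoc, by 0.76 (adjusted p = 0.0179). Without vehicle animal 4 the differences were 1.23, 1.1, 1.15 and 0.60, all still called.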
